A study of Mus musculus with 30 samples.

Results

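The genes of melanin synthesis described here were the 8 named Tyr, Tyrp1, Dct, Oca2, Pmel, Slc45a2, Mlana and Mitf. A probe set, the unit of measurement on the array, was taken for a gene when the platform annotation gave that gene as its 1 symbol. Of the 8 genes 7 were measured, by 13 probe sets, among 12393 genes and 20380 probe sets with 1 symbol in all. No probe set carried the symbol Mlana, which encodes a melanosome protein that binds Pmel, so it has no value here. Tyr and Tyrp1 had 3 probe sets each, Slc45a2 and Mitf 2 each, and Dct, Oca2 and Pmel 1 each. Where a gene had several, the one of highest mean signal stood for it, and the others served as a check.

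The samples were 30 mouse retinas, 1 from each pup, in 10 groups of 3. Oxygen-induced retinopathy (OIR) is a model of retinopathy of prematurity in which 7-day-old pups breathe 75% oxygen for 5 days and the retina becomes hypoxic on return to room air. In 8 groups OIR pups were injected into the vitreous at postnatal day 5 (P5), before oxygen, or at P12, on return to room air. At each day the injections were 100000 endothelial colony-forming cells (ECFC) plus 10000 CD34+ cells, ECFC alone, CD34+ cells alone, or saline. The last 2 groups were not injected, and were OIR and normoxia retinas. Strain, sex and litter are not named in the labels used here. All sample labels state P17, but the series text pairs injection at P5 with collection at P12, so day of injection and age at collection cannot be told apart.

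Melanin is made inside melanosomes of pigment cells. In the eye these are the retinal pigment epithelium, which lies against the photoreceptors, the pigmented epithelia of the ciliary body and iris, and the melanocytes of the choroid and iris stroma, which come from the neural crest. The neural retina makes no melanin. Tyr, tyrosinase, catalyses the rate-limiting step. Dct and Tyrp1 act later in the same pathway, Pmel forms the fibrils on which melanin is laid down, and Oca2 and Slc45a2 are melanosome transporters. Mitf is the transcription factor that drives pigment cell genes, and it binds E-boxes of the form known as the M-box, whose core reads TCATGTG.

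The sequences below are shown because the M-box core is the best known element that some of the members share. Whether it had a part in the values of these arrays was not tested. RefSeq promoters (build GRCm38.p6, 250 bases before to 50 after the start site) matched Tyr, Tyrp1, Dct, Oca2 and Mitf by symbol. Pmel, Slc45a2 and Mlana did not match. The core was searched on both strands, and capitals mark each copy. Positions are counted upstream from the start site to the first base of the copy. The stretches are chr7:87493513-87493569 on the minus strand for Tyr, chr4:80834131-80834207 on the plus strand for Tyrp1, and chr14:118052356-118052432 and chr14:118052437-118052496 on the minus strand for Dct.
Tyr, copy at -22: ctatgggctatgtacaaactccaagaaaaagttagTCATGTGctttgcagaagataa
Tyrp1, copy at -47: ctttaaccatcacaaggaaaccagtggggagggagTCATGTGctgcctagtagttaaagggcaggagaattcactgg
Dct, copy at -151: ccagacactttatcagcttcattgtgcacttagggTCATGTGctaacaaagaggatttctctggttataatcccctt
Dct, copy on the other strand at -232: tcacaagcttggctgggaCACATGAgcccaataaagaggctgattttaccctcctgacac
The core or its reverse complement CACATGA stood in 3.77% of all 32851 promoters of the same length. The Oca2 promoter held the shorter E-box CATGTG, which lies within the core, at -186, and 14.2% of all promoters held it. None of the 3 annotated Mitf start sites held either form in its window. A match here describes letters only.

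All values are log2 signals as deposited. A signal of one probe set is not set against that of another, since probe sets differ in brightness. Array medians lay between 8.16 and 8.49, and replicates of a group correlated over probe sets with r from 0.964 to 0.997. The hybridisation control probe sets read higher on arrays injected at P12 than on the others. Comparisons of a P12 group with a group outside P12 carry that difference too. As a scale for background, 9 probe sets of sex-linked genes read 3.13 to 5.70 off their sex, that is Y-linked genes on arrays with high Xist signal and Xist on arrays with low Xist signal. Sex was read from Xist itself, so the level of Xist among these is low by selection. On arrays not injected at P5, Tyr and Oca2 therefore lay at or just above background. Within their groups 2 arrays were the highest for most members, array 2 of P5 saline and array 3 of OIR, and calls and correlations that rest on them are given with and without them. P5 saline array 2 was not set apart in every gene, since Tyr read 5.85, 7.87 and 7.09 on P5 saline arrays 1, 2 and 3. P5 combination array 3 was low for some members, with Tyr at 5.34 against 6.31 and 6.65 on arrays 1 and 2. The tissue label fitted its markers, since the rod photoreceptor list averaged 12.97 to 13.35 on every array and the Muller glia list 10.94 to 11.54.

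**Figure D1:**
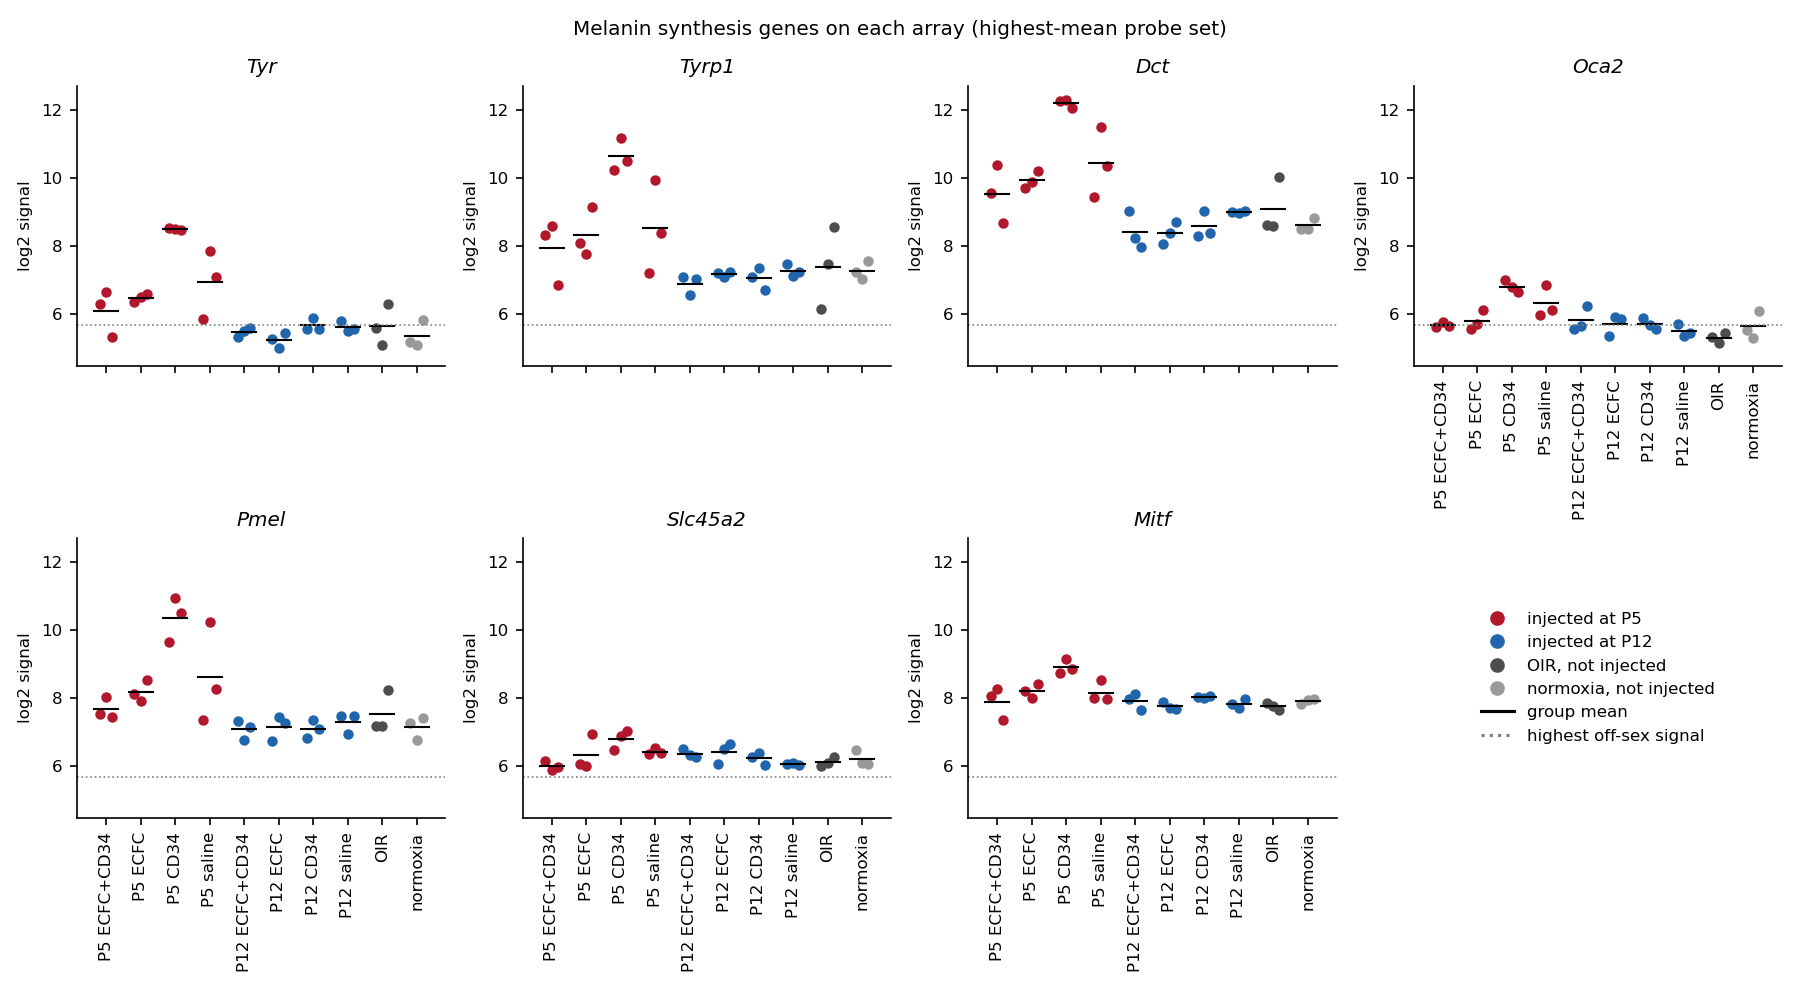
Log2 signal of the 7 measured members on each of 30 arrays, 1 panel per gene, with points for arrays and bars for group means of 3. P5 CD34 has the highest mean in every panel, and its 3 Tyr points lie between 8.49 and 8.53. The dotted line marks the highest background signal, 5.70, and heights are not comparable between panels.

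Retinas injected with CD34+ cells at P5 had the highest mean of all 10 groups in the highest-mean probe set of every one of the 7 members. In the second Slc45a2 probe set they did not. Tyr read 8.53, 8.50 and 8.49 in P5 CD34 retinas, against 5.85, 7.87 and 7.09 in P5 saline retinas. The 3 P5 CD34 arrays were nearly equal, while the P5 saline arrays were spread over about 2 log2 units and stayed below them. Over the 18 arrays not injected at P5, Tyr ran from 5.02 to 6.31 with a median of 5.54, which is close to background. The order of the other P5 groups was P5 saline at 6.94 ± 1.02, P5 ECFC at 6.49 ± 0.12 and the P5 combination at 6.10 ± 0.68 (SD, n = 3 each), and each of these overlapped its neighbour.

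The later enzymes of the pathway gave the same order of the P5 groups in their highest-mean probe sets, but not of the other groups. Dct, dopachrome tautomerase, read 12.25, 12.28 and 12.05 in P5 CD34 retinas, against 9.43, 11.50 and 10.36 in P5 saline retinas. Tyrp1, which acts on the product of Dct, read 10.23, 11.16 and 10.51 in P5 CD34 retinas, against 7.23, 9.94 and 8.40 in P5 saline retinas. For both genes the lowest P5 CD34 array lay above the highest P5 saline array. Dct was 7.98 to 10.04 and Tyrp1 6.16 to 8.57 on the 18 arrays not injected at P5. The top value of each of those ranges came from OIR array 3.

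Pmel, the fibril protein, read 9.66, 10.93 and 10.49 in P5 CD34 retinas, against 7.36, 10.24 and 8.28 in P5 saline retinas. These groups overlapped, because P5 saline array 2 lay above the lowest P5 CD34 array. Mitf read 8.75, 9.16 and 8.86 in P5 CD34 retinas, against 8.004, 8.53 and 7.97 in P5 saline retinas, with no overlap. Mitf varied little elsewhere, from 7.65 to 8.13 over the 18 arrays not injected at P5. Within that narrow range Mitf did not follow the enzymes. It correlated with Tyr, Tyrp1 and Dct at r = -0.02, -0.41 and -0.23 over those 18 arrays, where Tyr lay close to background. Over the 17 without OIR array 3 the values were 0.28, -0.23 and 0.05. Over the 12 injected at P5 they were 0.90, 0.95 and 0.92.

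The 2 melanosome transporters had the smallest differences among the members between P5 CD34 and P5 saline. Oca2 read 7.00, 6.79 and 6.66 in P5 CD34 retinas, against 5.97, 6.87 and 6.12 in P5 saline retinas. Slc45a2 read 6.49, 6.88 and 7.02 in P5 CD34 retinas, against 6.37, 6.54 and 6.38 in P5 saline retinas. Both genes overlapped between the groups. Slc45a2 had its lowest group mean in the P5 combination, 6.01 ± 0.13, rather than in a group without injection at P5 (SD, n = 3). All 7 members correlated with each other over the 12 arrays injected at P5, with r from 0.67 for Tyr with Slc45a2 to 0.99 for Tyr with Dct, and the same 2 pairs gave 0.67 and 0.99 without P5 saline array 2. Those arrays share groups, so the coefficients describe the arrays and are not a test. Over the other 18 arrays the enzymes and Pmel correlated at 0.46 to 0.81, but this rested on OIR array 3, since without it the range was 0.04 for Tyr with Tyrp1 to 0.61 for Dct with Pmel. Pairs with Oca2, Slc45a2 or Mitf ran from -0.42 to 0.40, and from -0.25 to 0.41 without that array.

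CD34+ cells alone at P5 were set against saline at P5 to ask what the cells added to the injection. In limma's fit over all 10 groups, with a call at a Benjamini-Hochberg adjusted p under 0.05, 5 of 7 members were higher in P5 CD34 retinas, and 3.07% of all genes were called higher. Tyrp1 was 4.32-fold higher, a log2 difference of 2.11 ± 0.55 (SE) with adjusted p = 0.0187. Dct was 3.38-fold higher (1.76 ± 0.43, adjusted p = 0.0130), and Pmel 3.33-fold (1.74 ± 0.46, adjusted p = 0.0199). Tyr was 2.97-fold higher (1.57 ± 0.35, adjusted p = 0.0084), and Mitf 1.69-fold (0.76 ± 0.18, adjusted p = 0.0116). Enzymes, fibril protein and regulator thus passed the test together. The transporters did not pass: Oca2 differed by 0.49 with a 95% interval of 0.03 to 0.96, and Slc45a2 by 0.37 with an interval of -0.02 to 0.76. The median difference of the members was 1.57, and that of all genes -0.03.

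The calls rest on the spread pooled over all groups and on single arrays of both groups. Fitted on these 6 arrays alone, limma called 0 members and 0 genes, with 4 members and 1404 genes at an unadjusted p under 0.05. Without P5 saline array 1, or without array 3, 2 of 7 members stayed called. Without P5 CD34 array 2, 3 stayed called, with Tyrp1 at adjusted p = 0.0517 and Pmel at 0.0644 in limma. Without P5 saline array 2 and OIR array 3, 6 members were called, and Tyrp1 was then higher by 2.82 ± 0.46. The log2 differences were positive for all 7 members in each of these fits.

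**Figure D2:**
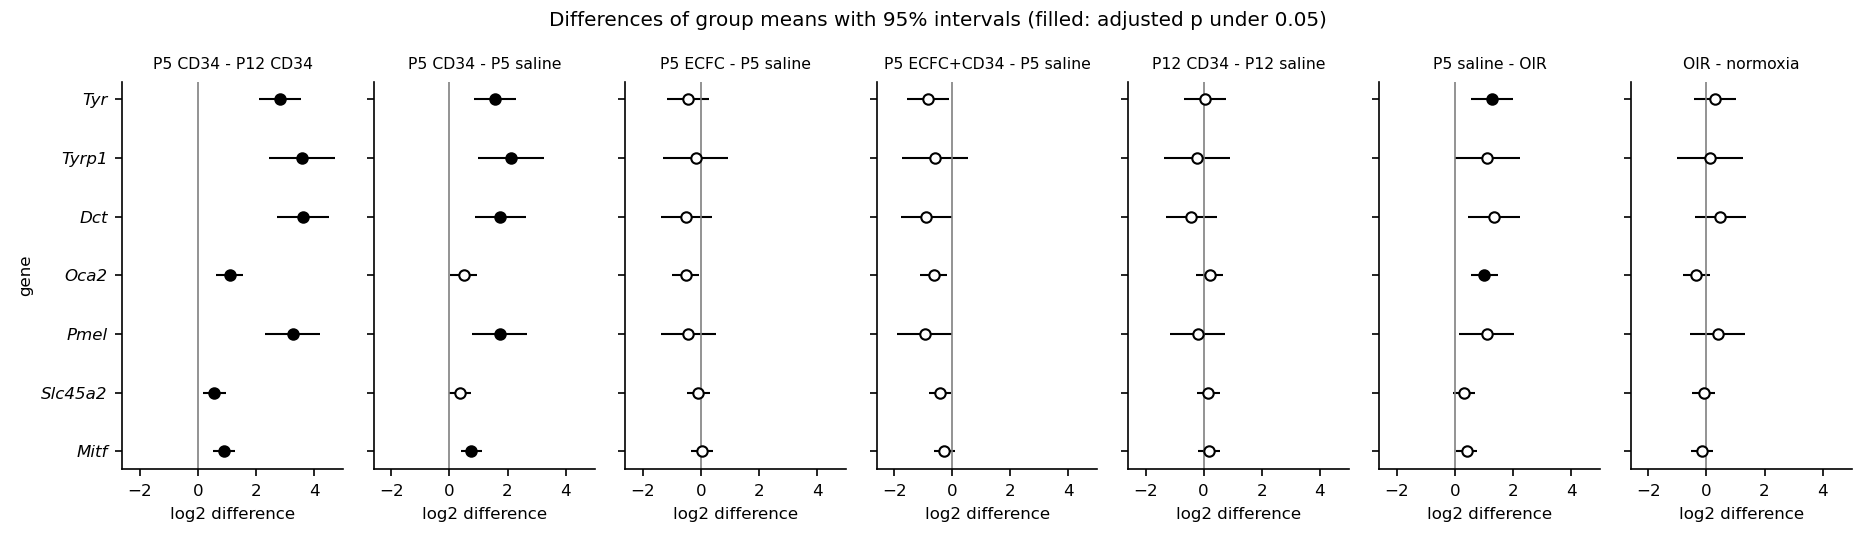
Log2 differences of group means with 95% intervals for the 7 members in 7 comparisons, named as the first group minus the second. Filled points have an adjusted p under 0.05. They number 7 for P5 CD34 against P12 CD34, 5 for P5 CD34 against P5 saline, 2 for P5 saline against OIR and 0 in the other panels.

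Neither ECFC alone nor the combination moved a member past the test against saline at P5. In P5 ECFC retinas 0 of 7 members were called against P5 saline, beside 0% of all genes, and 1 member and 779 genes had an unadjusted p under 0.05 in limma. Tyr read 6.36, 6.52 and 6.59 in P5 ECFC retinas, which lay inside the range of P5 saline. The difference in Tyr was -0.45 with a 95% interval of -1.18 to 0.28. The P5 combination also had 0 of 7 called beside 0% of all genes. Tyr read 6.31, 6.65 and 5.34 in the P5 combination, and Dct 9.57, 10.38 and 8.67. All 7 means lay below those of P5 saline, with differences from -0.27 in Mitf to -0.95 in Pmel, and 5 members had an unadjusted p under 0.05, as did 978 genes. Both comparisons share the P5 saline arrays with the one above.

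The P5 groups that received cells were therefore also compared with each other, a choice made after the values were seen. Against P5 CD34, the P5 combination was lower in all 7 members, and 3.56% of all genes were called lower. Tyr differed by -2.40 ± 0.35 (adjusted p = 0.00038), Dct by -2.65 ± 0.43 and Pmel by -2.69 ± 0.46. Mitf differed by -1.02 ± 0.18, Oca2 by -1.14 ± 0.22 and Slc45a2 by -0.79 ± 0.19. Oca2 read 5.62, 5.76 and 5.65 in the combination and 5.56, 5.71 and 6.13 in P5 ECFC, close to the highest background signal, 5.70. Tyr on combination array 3 read 5.34, below that signal. The Oca2 differences are therefore counted from a level close to background. No array of the combination reached the lowest P5 CD34 array in the highest-mean probe set of any member. In the second Slc45a2 probe set the ranges overlapped, at 5.25 to 5.44 in the combination and 5.09 to 5.70 in P5 CD34. P5 ECFC was lower than P5 CD34 in 6 of 7 members, and 2.79% of all genes were called lower. The exception was Slc45a2, at -0.45 with adjusted p = 0.178. On the compared arrays alone 0 members were called for the combination, with 7 at an unadjusted p under 0.05, and 2 for ECFC. Without P5 ECFC array 1, 3 members were called for ECFC. The combination also contained 10000 CD34+ cells, the same number as P5 CD34. Marker levels of other eye tissue moved with this difference. The connective tissue list averaged 7.70 to 8.44 on the P5 combination arrays, against 8.94 to 9.35 on the P5 CD34 arrays, and the ciliary body and iris list 7.73 to 8.26 against 8.49 to 8.68, neither with overlap. With the connective tissue mean as a covariate, chosen after the data were seen, 0 members were called for the combination and 0 for ECFC, and 7 and 4 had an unadjusted p under 0.05 in limma. With the ciliary body and iris mean 6 stayed called for the combination and 1 for ECFC. Both means separated P5 CD34 from the arrays of either group without overlap, so adjusting for them also removes much of the contrast. The share of all genes called in those fits is not given here.

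At P12 no cell treatment moved a member past the test. Against P12 saline, 0 of 7 members were called for P12 ECFC, where 0.0161% of all genes were called, and 0 of 7 for P12 CD34 and for the P12 combination, where 0% were called. Tyr read 5.56, 5.90 and 5.57 in P12 CD34 retinas, against 5.81, 5.51 and 5.56 in P12 saline retinas. Dct read 8.30, 9.04 and 8.40 in P12 CD34 retinas, against 8.998, 8.97 and 9.03 in P12 saline retinas. Both genes overlapped between these groups. The difference in Tyr was 0.05, with a 95% interval of -0.68 to 0.78, and that in Dct -0.42, with an interval of -1.30 to 0.46. In limma 0 members had an unadjusted p under 0.05 in any of the 3 comparisons, while 1996 genes did for ECFC, 643 for CD34 and 1226 for the combination. The 3 comparisons share the P12 saline arrays.

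The test of whether the CD34 difference itself changed with the day gave 0 of 7 members called, beside 1.90% of all genes. The estimates were large with wide intervals: Dct 2.18 ± 0.60 (adjusted p = 0.0598), Tyrp1 2.33 ± 0.77, Pmel 1.94 ± 0.65 and Tyr 1.52 ± 0.50 log2 units more at P5 than at P12. In limma 5 members and 2102 genes had an unadjusted p under 0.05. This test turned on P5 saline array 2, since 4 members were called without it. For ECFC the same test gave 0 of 7 members beside 0.0323% of all genes, and for the combination 0 of 7 beside 0%. In limma 1 member and 1480 genes had an unadjusted p under 0.05 for ECFC, and 2 members and 1419 genes for the combination.

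Injection at P5 was also compared with injection at P12 within each of the 4 treatments. Dct was called in all 4. For the combination its adjusted p was 0.0451 in limma, and 5 of 18 alternatives passed. The hybridisation control mean was higher on the P12 arrays, so day of injection cannot be told apart from that array difference either. With that mean as a covariate 1 member was called for saline, and 0 for ECFC and for the combination. The share of all genes called in that fit is not given here. In the CD34 comparison Tyr, Tyrp1, Dct, Pmel and Mitf stayed called under every alternative, each with the highest-mean probe set. The second Mitf probe set read 5.52 ± 0.11 in P5 CD34 and 5.40 ± 0.02 in P12 CD34 retinas (SD, n = 3 each). These overlapped, within the background range. P5 CD34 was higher than P12 CD34 in all 7 members, and 16.9% of all genes were called higher. Dct was 12.2-fold higher there (3.61 ± 0.43, adjusted p = 2.88e-06) and Tyr 7.10-fold (2.83 ± 0.35). Oca2 was 2.13-fold higher and Slc45a2 1.47-fold. The second Slc45a2 probe set did not repeat this, with means of 5.47 in P5 CD34 and 5.49 in P12 CD34 retinas. For Tyr and Oca2, 2 of the 3 P12 CD34 arrays lay under the highest background signal, so these folds are set against a level close to background. With such arrays raised to that signal, Tyr was 6.68-fold and Oca2 2.06-fold higher. P5 saline was higher than P12 saline in 4 of 7 members, Tyr, Dct, Oca2 and Pmel, and 19.2% of all genes were called higher. Without P5 saline array 2, 0 members were called. The visual cycle mean was 9.30 ± 0.79 in P5 saline and 7.67 ± 0.37 in P12 saline retinas, and the lens mean 12.4 ± 1.6 and 6.02 ± 0.07 (SD, n = 3 each). With either mean as a covariate 0 members were called, and 0 had an unadjusted p under 0.05 with the visual cycle mean and 2 with the lens mean in limma. Both means separated P5 saline from P12 saline arrays without overlap, so adjusting for either also removes much of that contrast. The share of all genes called in those fits is not given here. P5 ECFC was higher than P12 ECFC in 2 of 7, Tyr and Dct, beside 19.4% of all genes, and 1 was called without P12 ECFC array 2. The P5 combination was higher than the P12 combination in 1 of 7, Dct, by 1.12 ± 0.43, beside 20.0% of all genes. Without P5 combination array 3, 3 members were called, and without its array 1 or 2, or without array 2 or 3 of the P12 combination, 0 were. Shares of 1 or 2 in 7 are near the share of all genes called higher.

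Saline at P5 was also compared with OIR retinas that were not injected. Here 2 of 7 members were higher in P5 saline retinas, and 3.81% of all genes were called higher. Oca2 read 5.97, 6.87 and 6.12 in P5 saline retinas, against 5.34, 5.15 and 5.45 in OIR retinas, with adjusted p = 0.0068 and no overlap. All 3 OIR arrays lay under the highest background signal, so Oca2 was at least 1.54-fold higher, counted from that signal, beside a measured log2 difference of 1.01 ± 0.22. Tyr read 5.85, 7.87 and 7.09 in P5 saline retinas, against 5.59, 5.11 and 6.31 in OIR retinas, a difference of 1.27 ± 0.35 with adjusted p = 0.0269, and these overlapped. Dct differed by 1.34 ± 0.43 (adjusted p = 0.0508). The calls depended on single arrays. Without P5 saline array 1, 4 members were called, and without P5 saline array 2 or 3 or OIR array 1 or 2, 1 was. Without P5 saline array 2 and OIR array 3 together, 0 were called, and Oca2 then differed by 0.80 ± 0.24.

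Neither oxygen exposure itself nor saline at P12 moved a member past the test in its brightest probe set. Between OIR and normoxia retinas 0 of 7 members were called, and 4.56% of all genes were. Tyr read 5.59, 5.11 and 6.31 in OIR retinas, against 5.20, 5.10 and 5.83 in normoxia retinas. Tyrp1 read 6.16, 7.48 and 8.57 in OIR retinas, against 7.24, 7.05 and 7.57 in normoxia retinas. OIR array 3 was the highest of the 3 OIR arrays in Tyr, Tyrp1, Dct, Oca2, Pmel and Slc45a2 and the lowest in Mitf. The differences ran from -0.35 in Oca2 to 0.48 in Dct, whose 95% interval was -0.41 to 1.36. Between P12 saline and OIR retinas 0 of 7 were called, although 21.3% of all genes were. In limma 0 members had an unadjusted p under 0.05 in either comparison, against 2455 genes for OIR and normoxia and 4170 for P12 saline and OIR.

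The further probe sets repeated the result for the enzymes but not for every member. Over the 12 arrays injected at P5, the other probe sets of Tyr and Tyrp1 correlated with the first at r from 0.965 to 0.992. Tested among all 20380 probe sets, the second Tyr probe set was higher in P5 CD34 than in P5 saline retinas by 1.94 ± 0.46 (adjusted p = 0.0108). The second Tyrp1 probe set was higher by 1.99 ± 0.58 (adjusted p = 0.0350). The remaining probe set of Tyr differed by 1.25 ± 0.43 (adjusted p = 0.0746) and that of Tyrp1 by 1.39 ± 0.48 (adjusted p = 0.0718). The second Mitf probe set, with signals between 4.42 and 5.60, differed by 0.30 ± 0.14 (adjusted p = 0.199). That of Slc45a2, between 5.09 and 5.95, differed by 0.03 ± 0.15 (adjusted p = 0.933). Both of these lie within or near the background range, and the call for Mitf rests on 1 probe set. The second Mitf probe set was called in other comparisons where the first was not. It read 5.43, 5.07 and 5.31 in P12 saline retinas, against 4.79, 4.57 and 4.42 in OIR retinas, a difference of 0.68 ± 0.14 (adjusted p = 0.0010). In P5 saline against OIR retinas it differed by 0.64 ± 0.14 (adjusted p = 0.0060). All of these signals lie within the background range.

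**Figure D3:**
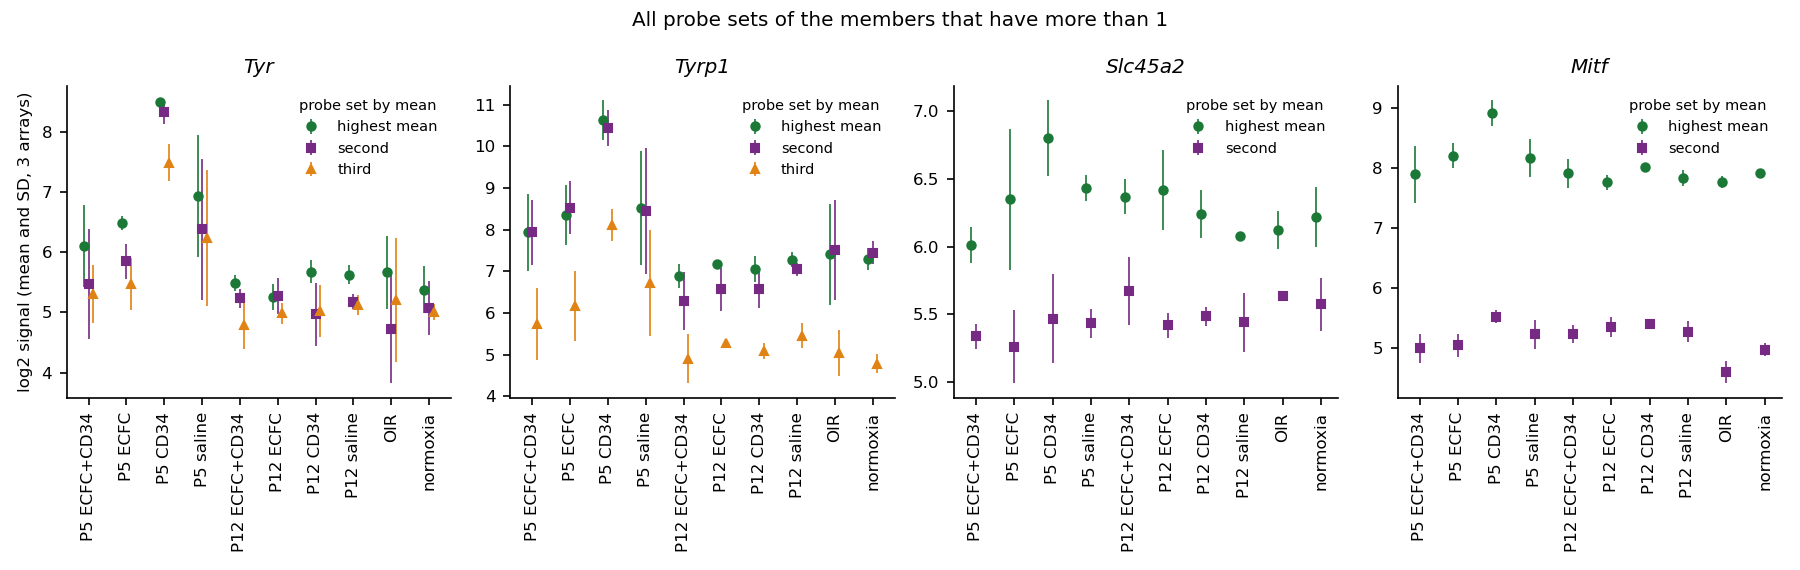
Mean and SD of 3 arrays per group for each probe set of the 4 members with more than 1, ranked by mean over all arrays. The probe sets of Tyr and Tyrp1 peak together in P5 CD34, and the second probe sets of Slc45a2 and Mitf stay between 4.42 and 5.95 on all arrays.

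A few other genes of the melanosome were called. The list of melanosome and pigment trafficking genes had 30 of 42 members measured. In P5 CD34 against P5 saline retinas 4 were higher and 0 lower, where 3.07% of all genes were called higher and 5.40% lower, with a list median of 0.04 beside -0.03 for all genes. Gpnmb, a glycoprotein related to Pmel that macrophages also make, was higher by 2.91 ± 0.53. Rab38 and Rab32, which sort Tyr and Tyrp1 to melanosomes, were higher by 1.27 ± 0.28 and 1.17 ± 0.24. Gpr143, a melanosome receptor of pigment epithelia, was higher by 0.85 ± 0.27. Its arrays read 7.10, 5.99 and 6.37 in P5 CD34 retinas, against 5.74, 5.53 and 5.62 in P5 saline retinas. Of these, 5.53 and 5.62 lie under the highest background signal, 5.70, so the Gpr143 difference is counted from a level close to background. Of 20 measured regulators of pigment cells 1 was higher and 1 lower, shares near those of all genes. Trpm1, a channel gene found in melanocytes that ON bipolar cells of the retina also use, was higher by 1.31 ± 0.35, and Pax6, an eye development factor, differed by -0.45 ± 0.12. In P5 saline against OIR retinas 3 of 30 trafficking genes were higher and 2 lower, where 3.81% of all genes were called higher and 4.88% lower, and of the regulators Kit alone was called, at -1.10 ± 0.17.

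Markers of pigment epithelium and lens were called with the members in P5 saline against OIR retinas, and few in P5 CD34 against P5 saline retinas. A dissected retina is a mixture, so more pigment cells and more pigment gene RNA per cell cannot be told apart. In P5 saline against OIR retinas 11 of 21 pigment epithelium genes were higher and 0 lower, including all 5 visual cycle genes used as a core list (Rpe65, Lrat, Rdh5, Rgr and Rrh). Of all genes 3.81% were called higher there and 4.88% lower. Rpe65, the isomerase of the visual cycle, read 7.96, 10.23 and 10.01 in P5 saline retinas, against 6.83, 6.83 and 6.04 in OIR retinas. The visual cycle mean was 8.39, 9.84 and 9.67 on the P5 saline arrays, against 7.65, 7.31 and 6.65 on the OIR arrays. All 16 lens genes were also higher there. In P5 CD34 against P5 saline retinas the count was 1 of 21 pigment epithelium genes higher (Ezr), 0 of 5 of the visual cycle and 0 of 16 of the lens. Of all genes 3.07% were called higher in that comparison. Rpe65 read 10.53, 9.15 and 9.90 in P5 CD34 retinas, which overlapped P5 saline, and the visual cycle mean 10.38, 9.16 and 9.66. With the visual cycle mean as a covariate, 5 of 7 members stayed higher in P5 CD34 than in P5 saline retinas, Tyr by 1.40 ± 0.32. With the same covariate 0 members were called for P5 saline against OIR, and the lens mean as a covariate also gave 0. Both means separated P5 saline from OIR arrays without overlap, so adjusting for either also removes much of that contrast. The share of all genes called in those fits is not given here.

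Some connective tissue and anterior eye genes were called with the members after CD34+ cells at P5. Against P5 saline 3.07% of all genes were called higher and 5.40% lower. Of 13 genes of choroid, sclera and connective tissue 5 were higher and 0 lower than in P5 saline, among them Fmod by 1.84 ± 0.38 and Col1a2 by 1.63 ± 0.39. The list averaged 9.10, 9.35 and 8.94 in P5 CD34 retinas, against 8.22, 8.21 and 7.39 in P5 saline retinas. Of 10 genes of ciliary body and iris 3 were higher and 0 lower, namely Zic1, Zic2 and Acta2, of which Acta2 is also a smooth muscle and pericyte gene. That list averaged 8.54, 8.68 and 8.49 in P5 CD34 retinas, against 7.34, 8.42 and 7.81 in P5 saline retinas. With either list's mean as a covariate, a choice made after the data were seen, 0 of 7 members were called, and 1 member had an unadjusted p under 0.05 in each case. The share of all genes called in those fits is not given here. Both means separated P5 CD34 from P5 saline arrays without overlap, so adjusting for them also removes much of the contrast between the groups. Tyr then differed by 0.73 ± 0.36 with the ciliary body and iris mean and by 1.13 ± 0.49 with the connective tissue mean. Of 15 microglia and macrophage genes 4 were higher (Gpnmb, Aif1, C1qb and Csf1r), and that list averaged 10.19, 7.68 and 8.42 on the P5 CD34 arrays, where Tyr, Tyrp1, Dct and Pmel together averaged 10.17, 10.72 and 10.38.

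Markers of neural crest melanocytes were also counted, beside 3.07% of all genes called higher and 5.40% lower in P5 CD34 against P5 saline retinas. Of 6 measured (Sox10, Kit, Ednrb, Pax3, Mc1r and Erbb3) 0 were called in P5 CD34 against P5 saline retinas, at a list median of 0.06. The list averaged 6.66, 6.65 and 6.82 in P5 CD34 retinas, against 6.80, 6.68 and 6.62 in P5 saline retinas. Sox10, a neural crest factor also found in glia, differed by 0.04 ± 0.27. The part that any of these tissues had in the result was not tested. The covariates were list means from the same arrays, so those fits cannot show which tissue the RNA came from.

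Melanin genes and visual cycle genes came apart on single arrays. The mean of Tyr, Tyrp1, Dct and Pmel was 8.29 on OIR array 3, above 7.09 and 6.89 on the other OIR arrays, while the visual cycle mean was 6.65 there, the lowest of all 30 arrays. P5 ECFC array 1 read 8.07 for the melanin genes and 7.00 for the visual cycle, with Rpe65 at 5.24. P5 ECFC array 2 read 8.02 for the melanin genes and 8.59 for the visual cycle. For lens genes P5 CD34 array 1 averaged 7.38 and arrays 2 and 3 averaged 13.92 and 13.80, where the melanin genes averaged 10.17, 10.72 and 10.38. Over the 12 arrays injected at P5 the melanin mean correlated with the visual cycle mean at r = 0.71, with the ciliary body and iris mean at 0.87 and with the lens mean at 0.35, and without P5 saline array 2 at 0.68, 0.86 and 0.29. Over the other 18 arrays the values were -0.31, 0.59 and 0.12. They rested on OIR array 3, and without it they were 0.36, 0.36 and -0.09. These coefficients describe arrays that share groups and carry no test.

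**Figure D4:**
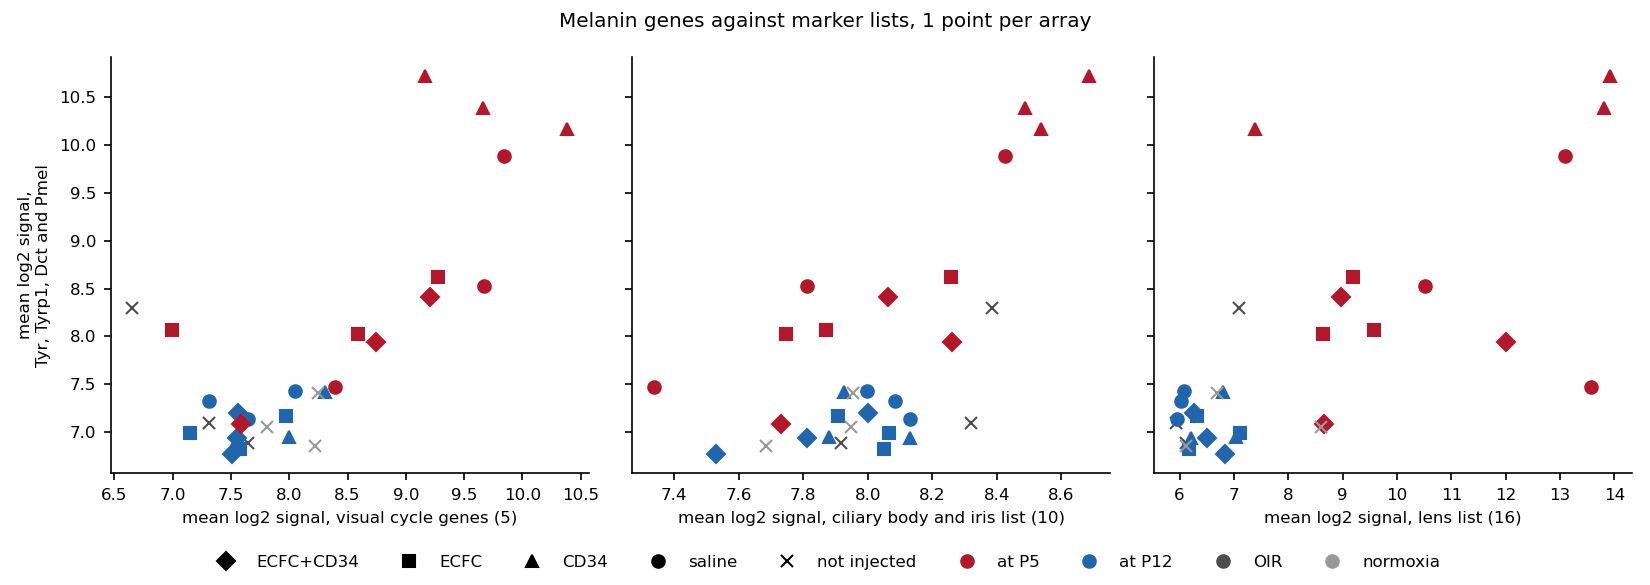
Mean log2 signal of Tyr, Tyrp1, Dct and Pmel on each array (vertical) against the means of 3 marker lists (horizontal), with colour for injection day and shape for treatment. The P5 CD34 arrays lie at 10.17 to 10.72 on the vertical axis in all panels, with 1 of them at a lens mean of 7.38, and OIR array 3 lies at 8.29 with the lowest visual cycle mean.

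Genes most like the members were ranked by Pearson r over the 12 arrays injected at P5. For the mean of the measured members other than Mitf the ranking began with Ctf1 (0.96), Ankrd44 (0.95), Ezr (0.94), Acta2 (0.93), Nxn (0.92) and Sgk1 (0.92). Smco4, Fgfr2, Gsx2 and Phgdh followed, down to 0.91. Over the other 18 arrays the same 10 genes had r from -0.10 to 0.37, and from -0.29 to 0.32 without OIR array 3. Ezr is the membrane linker ezrin of pigment epithelium microvilli, and Acta2 is smooth muscle actin. Rgr and Rpe65 stood at ranks 190 and 536, with 0.76 and 0.64, whereas Trpm1 stood at rank 12 with 0.90. For Mitf alone the nearest genes were Acta2 (0.94), Notch3 (0.93), Bcl2, Nxn and Igfbp7 (0.91 each), whose r over the other 18 arrays was between -0.36 and -0.23, or -0.20 and -0.03 without OIR array 3.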

How the data were processed

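RNA of 30 retinas was hybridised to expression arrays, 100 ng each, per the labels' protocols. The authors deposited 1 table of log2 values for 22690 probe sets. Partek is named in the submitters' processing notes, with normalization settings not given in the sources used here. Deposited log2 values were used unscaled, and arrays give no counts, so 3 arrays per group limit the precision. The platform annotation gave 20380 probe sets 1 symbol, 691 several and 1555 none, besides 64 controls, and 29 identifiers had no RefSeq match. The highest-mean probe set per gene was tested, which left 12393 genes.

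Differences were fitted with limma 3.58.1 in R 4.3.3, as 1 mean per group over all 10 groups with 20 residual degrees of freedom, eBayes and two-sided tests. Benjamini-Hochberg adjustment ran over all genes in each of 18 comparisons. The fit was also run on simulated data with equal spread in all groups. It called 82% of 50 genes raised by 1 log2 unit, with 9 false calls. Tyr had an SD of 0.02 in P5 CD34 and 1.02 in P5 saline retinas, so the simulation does not bear on pooling such unequal spread. Pups of a group may share a litter, so p-values measure the spread between these retinas. Replicate numbers did not pair samples: over 15 comparisons residual correlations ran from -0.45 to 0.45, and 0 had all pairs over 0.1. Members, 16 gene lists and their named genes (all members, up to 4 called genes per list and 11 fixed genes) were chosen with earlier results of these data known. The comparisons among P5 cell groups, the covariates for ciliary body and iris and for connective tissue, the floor at background and the omission of 2 arrays were chosen after values were seen. The alternatives were other scalings, filters, covariates and eBayes settings, a replicate block, the compared groups alone, and leaving out each array.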

Additional observations from a re-analysis of the deposited data

How the results depend on the processing

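The scalings (quantile normalization and median centring), testing all probe sets, the replicate block and eBayes with trend and robust settings left most counts of called members as reported. With a replicate block the count stayed 5 for P5 CD34 against P5 saline, and it changed no other call. No member changed sign past the threshold under any alternative. Of 34 member differences called, 473 of 609 values under the alternatives stayed past the threshold. Except where stated, counts under an alternative are not set beside the share of all genes called in that fit. With 3 arrays a group, precision is limited. Tyr and Oca2 lay near background outside the P5 groups, and Oca2 also in the P5 combination and P5 ECFC.

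For P5 saline against OIR the count was 1 with dim genes left out, where 4 members were left, 0 on the compared groups alone, with the visual cycle or lens mean as covariate, or without the 2 arrays, and 5 with the ciliary body and iris mean. For P5 saline against P12 saline it was 2 with median centring, with dim genes left out or on the compared groups alone, 0 with the visual cycle or lens mean or without the 2 arrays, and 1 with the hybridisation control mean, which was higher on P12 arrays (13.2 to 13.7) than on the others (11.9 to 13.0). For P5 CD34 against P5 saline it was 0 on the compared groups alone and with the ciliary body and iris or connective tissue mean. For P5 CD34 against P12 CD34 it was 4 of 4 with dim genes left out. For P5 ECFC against P12 ECFC it was 1 with dim genes left out, 0 with the hybridisation control mean and 5 with the ciliary body and iris mean. For the P5 against the P12 combination it was 2 on the compared groups alone and 0 with trend and robust settings or with the visual cycle, hybridisation control, ciliary body and iris or connective tissue mean. For the CD34 difference between days it was 1 with dim genes left out, 2 with the hybridisation control mean and 4 without the 2 arrays, and for the combination 1 with the hybridisation control mean. For the P5 combination against P5 CD34 it was 4 of 4 with dim genes left out and 0 on the compared groups alone or with the connective tissue mean. For P5 ECFC against P5 CD34 it was 2 on the compared groups alone, 3 with the visual cycle mean, 1 with the ciliary body and iris mean and 0 with the connective tissue mean. The cause of these shifts was not tested, except that dim filtering tests fewer members and the compared groups alone leave fewer arrays.

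Leaving out each array in turn gave 1 to 4 members for P5 saline against OIR, 2 to 6 for P5 CD34 against P5 saline, 0 to 5 for P5 saline against P12 saline, 1 to 2 for P5 against P12 ECFC, 6 to 7 for P5 against P12 CD34 and 0 to 3 for the P5 against the P12 combination. The range was 0 to 4 for the CD34 difference between days, 6 to 7 for the P5 combination against P5 CD34 and 3 to 7 for P5 ECFC against P5 CD34. It was 0 to 0 in the other 9 comparisons.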
